A study of Homo sapiens with 6 samples.

Results

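The BCL2 family of apoptosis regulators was followed by bulk RNA sequencing of LOX-IMVI, an established cell line from a human melanoma. Its genes were chosen by name, and 10 members of the 47432 genes in the tables were taken. They were the survival members BCL2, BCL2L1, MCL1 and BCL2A1, the effectors BAX and BAK1, and the BH3-only members BCL2L11, PMAIP1, BBC3 and BID. In shCtrl cells a lentivirus had delivered the pLKO.1 control vector, and in shNFKBIZ cells the same vector with 1 hairpin directed at NFKBIZ, the gene of the nuclear NF-κB co-regulator IκBζ. Cells were selected with puromycin, the labels name no further treatment, and there were 3 libraries per group from what the study describes as independent experiments. Since a single hairpin was used, effects of lower NFKBIZ and of the hairpin itself cannot be told apart.

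Mitochondrial apoptosis is decided by contacts between classes of BCL2 proteins. The effectors BAX and BAK1 form pores in the outer mitochondrial membrane and release cytochrome c. The survival proteins hold them, and the BH3-only proteins, made in response to stress, either occupy the survival proteins or activate the effectors directly. Melanomas are known for strong MCL1, BCL-xL (the long product of BCL2L1) and BCL2A1, and BCL2A1 and BCL2 are known targets of MITF, the master regulator of melanocytes.

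Libraries held 22264473 to 24624839 exon reads, and replicates of a group always differed by more than counting error (chi-square over its degrees of freedom 1.69 to 4.18). NFKBIZ was 41.4, 42.9 and 49.2 TPM in shCtrl and 13.7, 14.1 and 13.3 TPM in shNFKBIZ cells. TPM are transcript units scaled by exon length and library total. The edgeR fit of exon reads gave NFKBIZ a 3.43-fold fall. Of 7 melanocyte lineage markers, MLANA, SOX10 and S100B were listed at 0 in all 6 libraries, PMEL, TYR and DCT did not exceed 0.482 TPM, and MITF was at 1.72 to 3.58 TPM, so that the differentiated melanocyte program was close to absent in this line. The summed level of the 7 was 3.06 to 4.10 TPM in shCtrl and 1.79 to 2.44 TPM in shNFKBIZ. Of 7 markers of other cells, PTPRC, CD3E, PECAM1, VWF and EPCAM did not exceed 0.320 TPM. CD68, a lysosomal protein, rose from a mean of 98.5 to 198 TPM (edgeR log2 fold change 0.93). COL1A1, a collagen, fell from 31.0 to 8.85 TPM (-1.89). The summed level of the 7 was 126 to 132 TPM in shCtrl and 205.8 to 208 TPM in shNFKBIZ, and CD68 made up the rise. The part of these shifts in the results that follow was not tested.

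All 10 members could be tested, and all 10 differed between the groups at an adjusted P of at most 0.05 (edgeR quasi-likelihood test on exon reads), 6 higher and 4 lower in shNFKBIZ cells. This is to be read against 65.3% of the 13843 genes tested that differed (32.5% of the tested genes were higher and 32.8% lower), so that a difference as such does not set these genes apart. The changes were modest in fold, though their median size was not below that of all genes. None of the 10 reached 2-fold (edgeR, with 10 at an unadjusted P under 0.05, and 0 with DESeq2), against 8.96% of all genes, and the member with the strongest change moved 1.59-fold. The median size of the log2 fold change was 0.39 over the members and 0.30 over all genes. For each of the 10, the 3 libraries of either group did not overlap once scaled to library size (CPM), as for 68.7% of all genes. Members of one class did not move together: of the survival members 2 rose and 2 fell, and of the 6 death-promoting members (effectors and BH3-only) 4 rose and 2 fell. In bulk RNA, less RNA per cell and fewer expressing cells cannot be told apart.

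**Figure D1:**
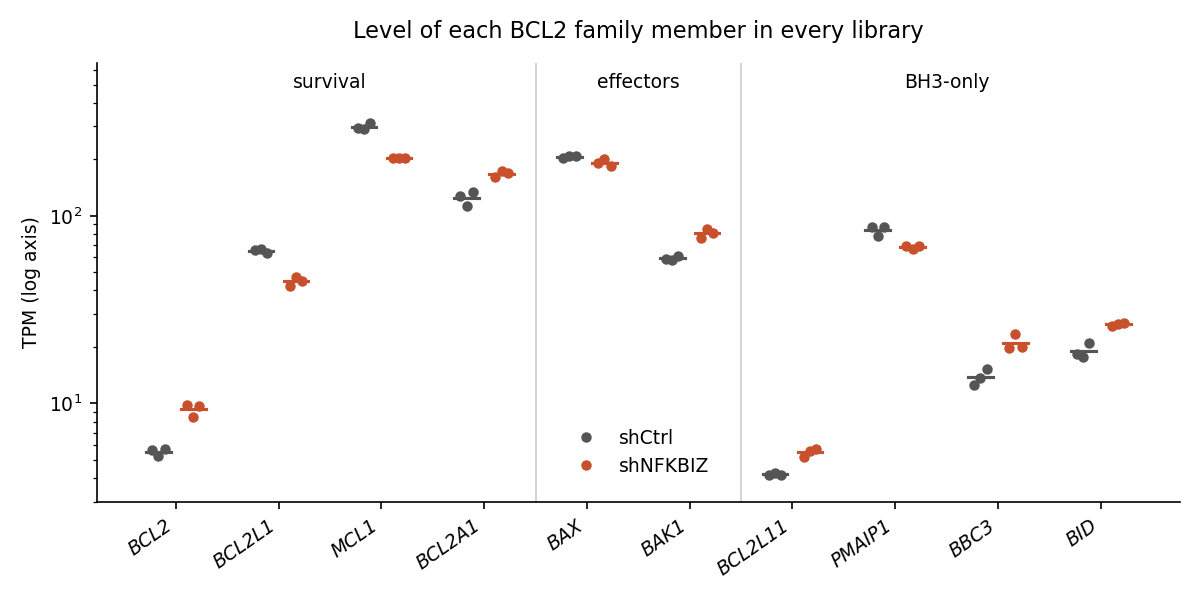
Level of the 10 members in every library, in TPM on a log axis, with points for libraries and bars for group means. MCL1, BCL2L1, BAX and PMAIP1 sit lower in shNFKBIZ than in shCtrl, the other 6 sit higher, and no member's groups overlap.

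The abundant survival genes MCL1 and BCL2L1 fell. MCL1 (ENSG00000143384, chromosome 1, 150560895 to 150579738, minus strand, hg38) encodes a short-lived survival protein that restrains BAK1. It was 294, 290 and 311 TPM in shCtrl and 203.2, 203.1 and 203.6 TPM in shNFKBIZ. The shNFKBIZ libraries were nearly alike and all lay below the lowest control. On the log2 scale it changed by -0.63 (SE 0.0324, edgeR adjusted P 1.79e-13), which is 1.55-fold lower. BCL2L1 (ENSG00000171552, chromosome 20, 31664452 to 31723989, minus strand), whose long splice form is BCL-xL and whose short form promotes death, was 65.5, 66.4 and 63.1 TPM in shCtrl and 42.2, 47.0 and 44.9 TPM in shNFKBIZ. The fall was nearly the same in size, at -0.62 (SE 0.0479, edgeR adjusted P 1.78e-10). Counts per gene join both splice forms, so that their balance was not measured, and the same holds for the long and short forms of MCL1.

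BCL2 and BCL2A1 went the other way. BCL2 (ENSG00000171791, chromosome 18, 63123346 to 63320128, minus strand), the founding survival gene of the family, was 5.64, 5.24 and 5.75 TPM in shCtrl and 9.79, 8.49 and 9.65 TPM in shNFKBIZ. It had the strongest change of the 10, at 0.67 on the log2 scale (SE 0.0687, edgeR adjusted P 2.00e-08), but stayed the least abundant survival member. BCL2A1 (ENSG00000140379, chromosome 15, 79960892 to 79971196, minus strand), which encodes the survival protein BFL-1 and is a known NF-κB target, was 127, 113 and 134 TPM in shCtrl and 161, 173 and 169 TPM in shNFKBIZ. The change was 0.34 on the log2 scale (SE 0.0561, edgeR adjusted P 1.44e-05). RELA, the NF-κB subunit p65, fell by 0.20 in the same cells, and a link between these changes was not tested.

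The effectors also differed in direction. BAX (ENSG00000087088, chromosome 19, 48954815 to 48961798, plus strand), the effector that moves from the cytosol to mitochondria, was 203, 209 and 208 TPM in shCtrl and 192, 201 and 183 TPM in shNFKBIZ. This was the weakest change of the 10, at -0.19 in log2 terms (SE 0.0374, edgeR adjusted P 0.000130). BAK1 (ENSG00000030110, chromosome 6, 33572547 to 33580293, minus strand), the effector that resides in the mitochondrial membrane, was 59.1, 58.3 and 61.3 TPM in shCtrl and 75.8, 84.7 and 81.1 TPM in shNFKBIZ. It rose by 0.35 on the log2 scale (SE 0.0507, edgeR adjusted P 2.75e-06). The ratio of BAX to BAK1 TPM was 3.44, 3.58 and 3.40 in shCtrl and 2.53, 2.37 and 2.26 in shNFKBIZ libraries. With exon-exon reads alone, fragments that span a splice junction, BAX (-0.06, edgeR adjusted P 0.386) and BAK1 (0.23, edgeR adjusted P 0.0549) missed the threshold.

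Of the BH3-only members, 3 rose. BBC3 (ENSG00000105327, chromosome 19, 47220822 to 47232766, minus strand), which encodes the activator PUMA, was 12.5, 13.6 and 15.2 TPM in shCtrl and 19.8, 23.4 and 19.9 TPM in shNFKBIZ. Its change of 0.53 in log2 terms (SE 0.0829, edgeR adjusted P 8.14e-06) was the highest of the death-promoting members. BID (ENSG00000015475, chromosome 22, 17734138 to 17774770, minus strand), which links caspase 8 to mitochondria, was 18.4, 17.7 and 20.9 TPM in shCtrl and 26.0, 26.5 and 26.7 TPM in shNFKBIZ. It rose by 0.40 (SE 0.0608, edgeR adjusted P 6.73e-06). BCL2L11 (ENSG00000153094, chromosome 2, 111119378 to 111168445, plus strand), which encodes the activator BIM, was the lowest member, at 4.18, 4.25 and 4.14 TPM in shCtrl and 5.16, 5.56 and 5.73 TPM in shNFKBIZ.

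The rise of BCL2L11 was the least firm of the 10. It was 0.30 in log2 terms (SE 0.0934, edgeR adjusted P 0.00691) on 159 to 227 reads per library. With all gene reads it was 0.19 (edgeR adjusted P 0.0626), and with exon-exon reads, of which it had 9, 20 and 14 in shCtrl and 7, 14 and 15 in shNFKBIZ, it was -0.22 (edgeR adjusted P 0.618). BCL2L11 overlaps MIR4435-2HG on the opposite strand, and strand was not used in the counting. MIR4435-2HG had 11852 summed exon and 10980 summed intron reads in shCtrl, and 9996 and 8688 in shNFKBIZ. How many reads each gene lends the other was not tested.

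PMAIP1 (ENSG00000141682, chromosome 18, 59899996 to 59904305, plus strand), which encodes NOXA, the BH3-only protein that binds MCL1 and BFL-1, fell. It was 87.5, 77.6 and 87.5 TPM in shCtrl and 69.0, 66.9 and 69.1 TPM in shNFKBIZ, and changed by -0.38 in log2 terms (SE 0.0534, edgeR adjusted P 1.85e-06). It was the most abundant BH3-only gene in both groups and supplied 68.5% to 71.4% of the summed BH3-only TPM in shCtrl and 54.7% to 57.5% in shNFKBIZ. Since MCL1 fell by more, the ratio of MCL1 to PMAIP1 TPM was 3.36, 3.73 and 3.55 in shCtrl and 2.95, 3.04 and 2.95 in shNFKBIZ.

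Levels per length ran from MCL1 through BAX to BCL2A1 at the top in both groups, with BCL2 and BCL2L11 at the bottom. Neighbours in this order did not overlap between libraries within a group. PMAIP1, BCL2L1 and BAK1 followed in this order in shCtrl, and BAK1, PMAIP1 and BCL2L1 in shNFKBIZ cells.

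Survival and death-promoting members were then summed per library. Summed survival TPM was 492, 475 and 513 in shCtrl and 416, 431 and 427 in shNFKBIZ, so that the groups did not overlap. Summed death-promoting TPM was 385, 380.1 and 397 in shCtrl and 387, 408 and 386 in shNFKBIZ, and these groups overlapped. The BH3-only sum came to 121 ± 7.40 (SD, n = 3) in shCtrl libraries and to 121 ± 1.22 in those of shNFKBIZ. The rise of BBC3, BID and BCL2L11 and the fall of PMAIP1 thus offset each other on this scale. TPM lacks the library scaling of the edgeR fits, in which the change of every member lay lower. The sums therefore depend on the scaling, and so does the overlap of the death-promoting sums. The ratio of the survival to the death-promoting sum was 1.28, 1.25 and 1.29 in shCtrl and 1.07, 1.06 and 1.11 in shNFKBIZ. A sum of RNA levels is a description and not a measure of protein or of cell death. With MCL1 and BAX, the most abundant member of each side, both left out, the mean ratio was 1.08 in shCtrl and 1.10 in shNFKBIZ. Neither was left out alone, so that the part of each was not tested.

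The makeup of the survival side shifted more than its sum. MCL1 supplied 60.4 ± 0.676% (SD, n = 3) of the survival TPM in shCtrl and 47.9 ± 0.914% in shNFKBIZ. BCL2A1 supplied 25.3 ± 1.22% and 39.4 ± 0.722%, BCL2L1 13.2 ± 0.856% and 10.5 ± 0.376%, and BCL2 1.12 ± 0.0201% and 2.19 ± 0.201%. None of these shares overlapped between the groups. The ratio of MCL1 to BCL2A1 TPM was 2.31, 2.56 and 2.32 in shCtrl and 1.26, 1.18 and 1.21 in shNFKBIZ libraries.

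**Figure D2:**
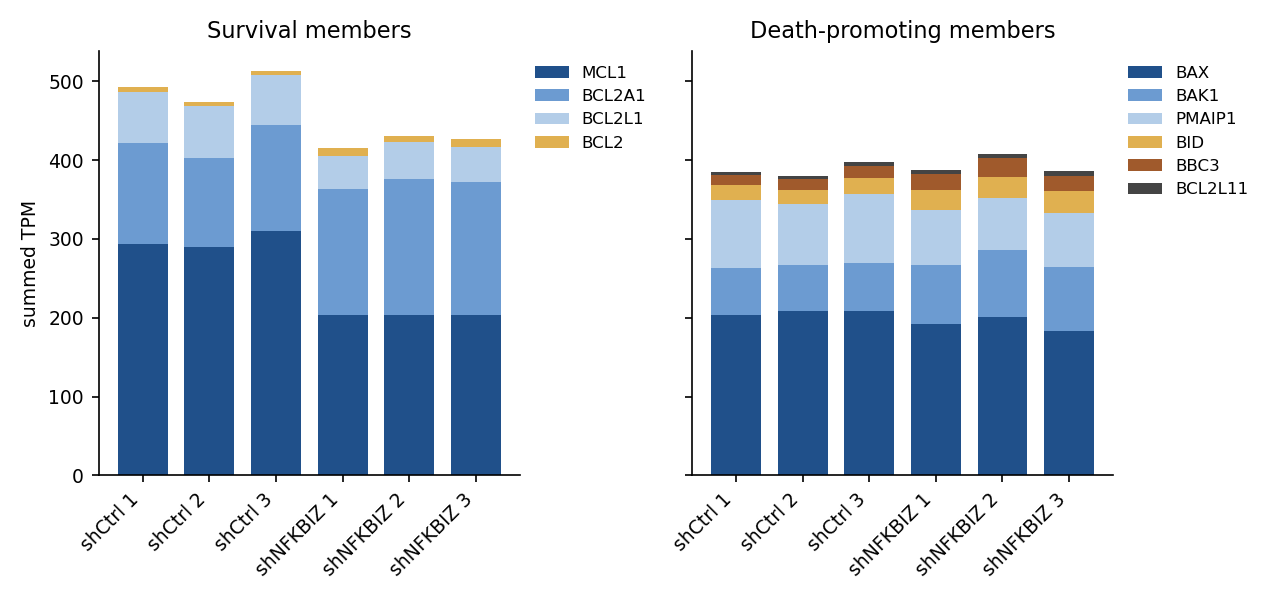
Summed TPM of the survival members (left) and of the death-promoting members (right), stacked by gene for each of the 6 libraries. The survival sum is 475 to 513 TPM in shCtrl and 416 to 431 TPM in shNFKBIZ, with a smaller MCL1 and a larger BCL2A1 segment. The death-promoting sums of both groups overlap on this scale.

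Intron reads gave a second readout of the same libraries. Their source can be unspliced RNA or, since strand was not used, an overlapping gene. They were few, from 28 to 166 per member and library. Only BCL2 and PMAIP1 differed in intron reads (2 of 10, edgeR, against 38.8% of 12119 genes). BCL2 had 57, 64 and 59 intron reads in shCtrl and 96, 106 and 96 in shNFKBIZ, with a log2 fold change of 0.64 (SE 0.138), close to that of its exon reads. PMAIP1 had 56, 54 and 58 against 40, 28 and 36, with one of -0.78 (SE 0.186), below that of its exon reads. The difference between both kinds of reads missed the threshold for PMAIP1 (0.41, SE 0.187, edgeR adjusted P 0.0866). For BCL2A1 the intron change was 0.34 (SE 0.161, edgeR adjusted P 0.0906), the same size as in exon reads.

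Whether exon reads changed otherwise than intron reads was asked in a single model. The difference passed the threshold for 5 of 10 members, against 28.9% of 11025 genes. In 2 of them the exon reads fell by more than the intron reads. BCL2L1 had 128, 149 and 107 intron reads in shCtrl and 138, 148 and 144 in shNFKBIZ, and its exon change lay below its intron change by 0.68 (difference -0.68, SE 0.115, edgeR adjusted P 8.87e-07). MCL1 had 83, 75 and 69 against 68, 78 and 68 intron reads, with a difference of -0.44 (SE 0.140, edgeR adjusted P 0.0101). Intron reads were 0.615% to 1.06% of its gene reads, and it overlaps ADAMTSL4 on the opposite strand, which had 191 summed exon reads in shCtrl and 106 in shNFKBIZ.

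In the other 3 the exon reads rose and the intron change lay below 0. BBC3 had 99, 114 and 107 intron reads in shCtrl and 77, 107 and 91 in shNFKBIZ, with a difference of 0.86 (SE 0.144, edgeR adjusted P 9.34e-07). BCL2L11 had 45, 51 and 42 against 37, 40 and 38, with a difference of 0.67 (SE 0.209, edgeR adjusted P 0.00946), beside the overlapping gene named above. BAK1 had 53, 45 and 38 against 44, 38 and 42, with a difference of 0.59 (SE 0.189, edgeR adjusted P 0.0116). MCL1 and BAK1 did not keep this call without every library. Without shNFKBIZ replicate 2 both were lost (MCL1 -0.39, adjusted P 0.0788; BAK1 0.48, edgeR adjusted P 0.0825), which left 3 members. MCL1 was also lost without shCtrl replicate 3 (-0.38, edgeR adjusted P 0.0703), and BAK1 without shCtrl replicate 1 (0.46, edgeR adjusted P 0.120).

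**Figure D3:**
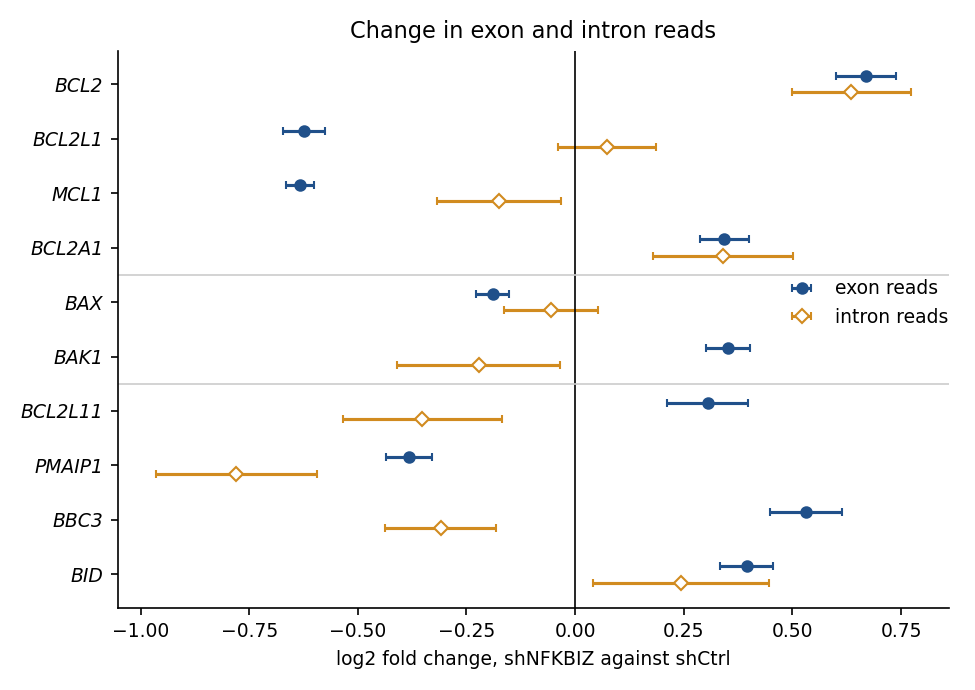
Log2 fold change of exon reads (filled circles) and intron reads (open diamonds) of each member in shNFKBIZ against shCtrl, with bars of 1 standard error to either side. BCL2 and BCL2A1 have like changes in both, while MCL1 and BCL2L1 fall in exon reads with intron changes of -0.18 and 0.07.

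MCL1 and BCL2L1 shared a sequence feature. The 7-mer GGAACTC had been picked out in an earlier scan of these same data, so that what follows describes the members and is no test. It was present in the canonical mRNA of 19.8% of 11817 protein-coding genes tested, and their median log2 fold change was -0.14, against 0.01 in the genes without it. The median difference between exon and intron changes was -0.10 with it and 0.01 without it. Among the members only MCL1 and BCL2L1 held it, which is near the share over all genes. In the canonical mRNA it lay in the 3′UTR of MCL1 and in the coding sequence of BCL2L1. It was present in 3 of 5 annotated coding transcripts of MCL1 and 13 of 13 of BCL2L1, with no region assigned there. The other 8 held it in none of their annotated coding transcripts, PMAIP1 and BAX included, which also fell. Both sites are shown with flanking bases, 5′ to 3′ on the mRNA strand, with the 7-mer in capitals, at chr1:150576148-150576177 and chr20:31666057-31666086 of hg38.
MCL1: ttcagctgaatGGAACTCattagctgtgtg
BCL2L1: gatacttttgtGGAACTCtatgggaacaat
Whether the 7-mer has a part in the fall of either gene was not tested, and the hairpin's own sequence did not enter.

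Promoters of RefSeq (GRCh38.p14, 250 bases before to 50 after the start) were matched for 9 members, MCL1 being the exception, with 14 promoters in all. They were searched on both strands, and the matches of NF-κB, STAT and MITF motifs are given. The NF-κB consensus was found in none of the 9, against 11.3% of 35116 promoters. The STAT motif TTCNNNGAA was found in BCL2A1, against 7.66% of all promoters. The MITF motif CATGTG was found in BCL2A1 and BID, against 11.1%. Members were counted by gene here and the shares by single promoter, so that their units are unlike. The sites of BCL2A1, which rose, are shown on the strand of the gene with the motif in capitals, and they do not overlap each other. They lie at chr15:79971346-79971374 and chr15:79971206-79971231.
BCL2A1 STAT motif: aggaagtggcTTCTCTGAAacattttcct
BCL2A1 MITF motif: catgtatcatCATGTGtcataactca
A match is a description of the letters and does not show that a factor binds, and sites outside these windows were not searched.

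Of 13 further genes of the BCL2 family, 8 could be tested, and 2 rose and 5 fell, with a median log2 fold change of -0.30. Over all genes tested 32.5% rose, 32.8% fell and the median was 0.0043. BMF, a BH3-only gene, was the one past 2-fold. It rose from 0.848 ± 0.201 to 2.62 ± 0.249 TPM (SD, n = 3). Its edgeR log2 fold change was 1.54 (SE 0.195, edgeR adjusted P 4.54e-07) on 85 and 250 summed reads. BCL2L12 also rose (0.26). BNIP3 (-0.70) and BNIP3L (-0.56), which serve as receptors for the removal of mitochondria, and BOK (-0.33), a relative of BAX and BAK1, fell the most. BCL2L10, BIK, HRK, BCL2L14 and BCL2L15 had too few reads to be tested.

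Of 27 genes of the machinery downstream of mitochondria and of death receptors, 25 could be tested, and 8 rose and 14 fell (median log2 fold change -0.23), against 32.5% and 32.8% of all genes. BIRC3, which encodes the ubiquitin ligase cIAP2 and is a known NF-κB target, fell from 47.7 ± 1.40 to 25.02 ± 0.407 TPM. Its edgeR log2 fold change of -1.01 (SE 0.0427) is past 2-fold. APAF1, the scaffold of the apoptosome that cytochrome c sets off, fell next (-0.76). The initiator caspases CASP2 (0.57) and CASP8 (0.47) and the mitochondrial nuclease ENDOG (0.42) rose the most.

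Of 21 regulators of the members, 19 could be tested, and 3 rose and 14 fell (median log2 fold change -0.31), against the same 32.5% and 32.8% of all genes. FOXO1, a factor known to switch on BCL2L11 and BBC3, fell from 8.17 ± 0.229 to 3.35 ± 0.252 TPM (SD, n = 3). With an edgeR log2 fold change of -1.36 (SE 0.0969, edgeR adjusted P 4.76e-11), it was the one past 2-fold. FOXO3, its relative, fell by 0.67 and MITF by 0.77. BCL2 and BCL2A1 rose in the same cells. Whether any regulator had a part in the change of a member was not tested. STAT5B rose by 0.42, and MDM2, which encodes a ubiquitin ligase, by 0.27.

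**Figure D4:**
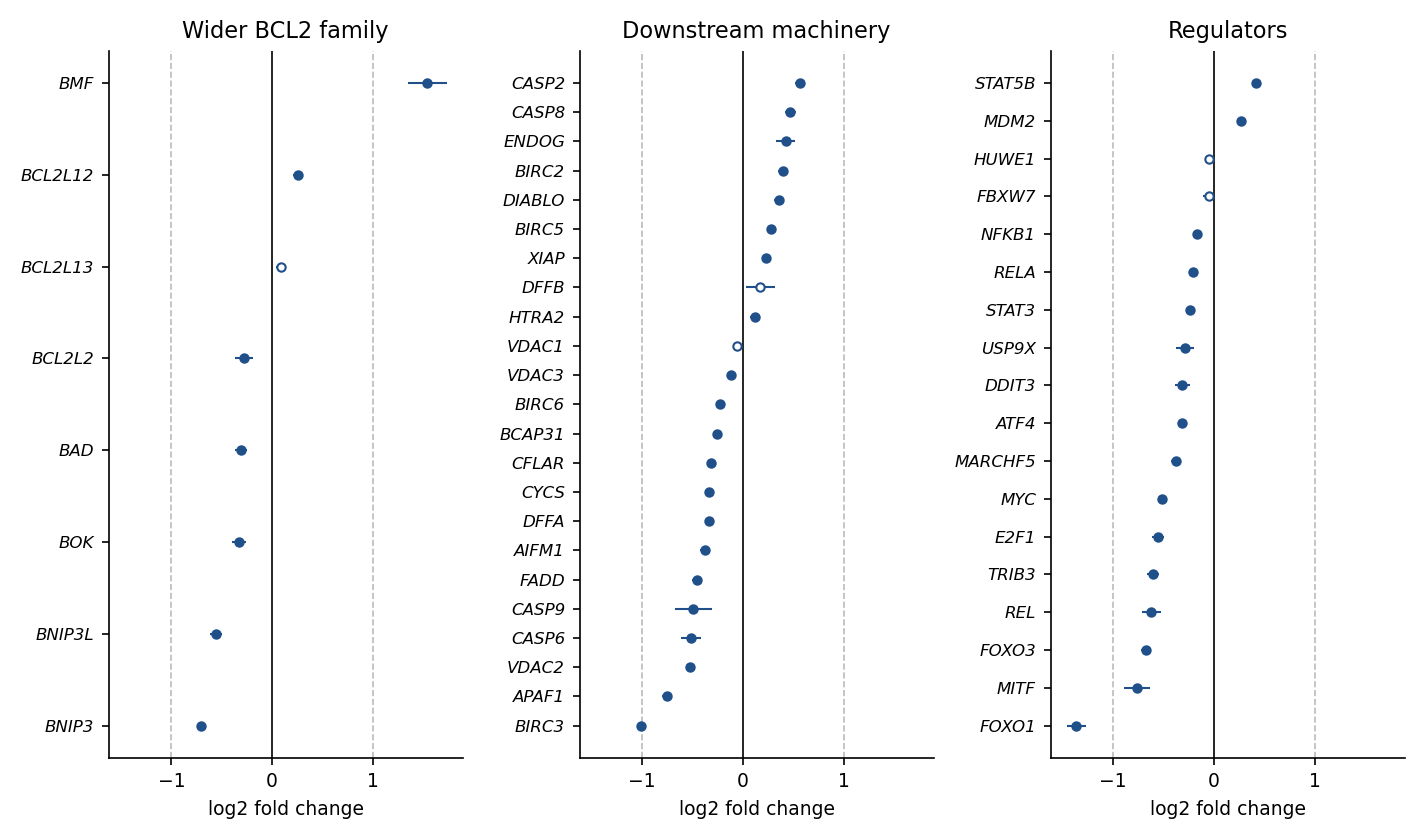
Log2 fold change of genes of the wider BCL2 family, the downstream machinery and the regulators in shNFKBIZ against shCtrl, with bars of 1 standard error to either side. Filled circles passed the adjusted threshold, open circles did not, and dashed lines mark a 2-fold change, which BMF, BIRC3 and FOXO1 exceed.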

How the data were processed

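The authors mapped reads to hg38 (GRCh38.109) in CLC Genomics Workbench under default settings, without using strand, and the deposited values are raw counts, in which a fragment counts once per gene, given for exon, intron and exon-exon reads. TPM was calculated anew from the exon read counts and the exon lengths, since the deposited TPM had decimal commas. Of the exon reads of MCL1 at least 99.9865% were unique in each library, and of the other members 100%.

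Exon read counts were filtered with filterByExpr, scaled with TMM factors and tested across all genes by quasi-likelihood in edgeR 4.0.16 (R 4.3.3) (13843 genes, Benjamini-Hochberg, two-sided, no replicate block). Intron counts were fitted likewise, and exon against intron changes as an interaction with library blocks. The SE is the log2 fold change over the square root of F. In counts simulated for shNFKBIZ against shCtrl (13705 genes), 97.0% of 197 changed genes were called, and 9 unchanged ones. For exon against intron changes (10993 genes) these were 81.6% of 163, and 7. How often exon changes of the size seen in the members (0.19 to 0.67 in log2 terms) are called was not tested.

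The members and gene lists were chosen with earlier results of these data known. Named were all members, NFKBIZ, MITF and RELA, and of the other lists each gene past 2-fold and the 3 strongest changes in each direction. Some genes of these lists count in their totals but are not reported here by name, and not every motif searched is reported. Alternatives were RLE factors, library size alone, other filters, the likelihood ratio test, DESeq2 1.42.0, unique reads, all gene reads, a table without the 10 genes of highest count, a replicate block and leaving out each library. Exon-exon reads and a fit freed of any trend with GC content or exon length were added after the data were seen. The transcripts are those of GENCODE release 44 on hg38.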

Additional observations from a re-analysis of the deposited data

How the results depend on the processing

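MCL1, BCL2L1, BCL2, BCL2A1, BBC3, BID and PMAIP1 kept their direction and their call under all 18 alternatives, as did NFKBIZ. The changes ranged from -0.67 to -0.54 for MCL1, from -0.80 to -0.53 for BCL2L1 and from 0.25 to 0.53 for BCL2A1. With library size alone the median of all genes moved to 0.09, and no member changed its direction or call. With all gene reads BCL2L11 lost its call (0.19). With exon-exon reads BAX (-0.056) and BAK1 (0.23) lost theirs, BCL2L11 changed sign (-0.22), 11 regulators differed instead of 17, and 1 member, BCL2, was past 2-fold (1.60, on 5 to 7 reads in shCtrl and 15 to 21 in shNFKBIZ). The cause was not tested. Fewer reads enter this setting, although BAX still had 857 to 1024 per library, with an SE of 0.053 instead of 0.037. Leaving out 1 library at a time gave 3 to 5 members whose exon and intron changes differed. Values that were not called changed sign in some of these fits: the difference between exon and intron changes ranged from -0.0091 to 0.14 for BCL2 and from -0.076 to 0.16 for BCL2A1, and the intron change from -0.031 to 0.16 for BCL2L1 and from -0.11 to 0.028 for BAX, which was also 0.00181 with library size alone. The intron change of BBC3 (-0.31) was called in 4 of 10 alternatives. Without MCL1 and BAX the mean ratio of the survival to the death-promoting sum in shCtrl was 1.08 instead of 1.27.

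Same-numbered libraries did not deviate together (correlations 0.0207, 0.0561 and 0.0288), and the replicate block left 10 members that differed and gave MCL1 -0.63. It moved the intron calls from 2 to 3 members. Depth limits the intron reads and the exon-exon reads of BCL2 and BCL2L11.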
